A study of Mus musculus with 18 samples.

Results

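This is an account of 8 genes used as markers of reserve or regenerative stem cells of the intestine, *Bmi1*, *Hopx*, *Tert*, *Lrig1*, *Mex3a*, *Clu*, *Anxa1* and *Ly6a*, chosen by symbol from the 43346 genes of the count tables. They were read in RNA from Lgr5+ cells of small intestinal (SI) and large intestinal (LI) crypts of untreated C57BL/6 mice with the genotype Lgr5_eGFP_Iris_creERT2, aged 8 to 20 weeks by the labels. The study names this allele Lgr5eGFP-Ires-CreERT2. Live Epcam+ cells were sorted by flow cytometry into 3 levels of Lgr5-GFP, and the study equates high GFP with the centre of the stem cell zone, medium with its border and low with cells above row 3 (row >3). Each of the 6 groups (SI centre, SI border, SI row >3, LI centre, LI border, LI row >3) had 3 replicates, which makes 18 libraries of 8312093 to 31940965 counts. In this knock-in allele GFP is driven from the *Lgr5* locus, and the study describes its expression as patchy, so the groups hold the crypt cells that carried the reporter. The gate therefore sets *Lgr5* itself, whose decline from centre to row >3 is not a finding here. All 8 genes passed the filter for testing, a mean count above 0, which 26717 of the 43346 genes passed.

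Lgr5+ cells at the crypt base divide often and renew the epithelium, and a scarcer, slowly cycling reserve population just above them has been defined by reporters of *Bmi1*, *Hopx*, *Tert* and *Lrig1*. *Mex3a* was later used to name a slowly cycling fraction within the Lgr5+ cells. After injury the epithelium passes through a transient, fetal-like state in which *Clu*, *Anxa1* and *Ly6a* (Sca-1) are raised, and the transcriptional co-activator YAP acting through TEAD factors is known to take part in it. These roles come from reporter mice and injury models, and the animals here were uninjured.

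The third replicate of the SI stood apart before any of the markers was read. Summed over 5 genes of large intestinal identity (*Hoxb13* and *Car1* among them), its libraries held 415 CPM (counts scaled to the library total after TMM adjustment) in the centre, 1625 in the border and 2452 in row >3, where replicates 1 and 2 of the SI held 49.2 to 113 CPM and the LI libraries 601 to 1777 CPM. The same 3 libraries also held 5 genes of small intestinal identity at 131, 161 and 157 CPM, beside 133 to 275 CPM in the other SI libraries and 7.87 to 15.7 CPM in the LI, and 6 Paneth cell genes at 1598, 398 and 155 CPM, beside 1408 to 6723 CPM in the other SI libraries and at most 11.996 CPM in the LI. Its *Lgr5* level was also the lowest of each SI group, with normalised counts of 2434, 157 and 28.1. Values without these 3 libraries are also given below for several marker differences and gene lists. For the lists this alternative was chosen after seeing the data. The epithelial genes *Epcam*, *Cdh1*, *Krt8*, *Krt18* and *Vil1* summed to between 2716 and 6763 CPM in every library, while 11 immune markers reached at most 27.7 CPM, 8 stromal markers at most 16.6 CPM and 5 endothelial markers at most 5.99 CPM. Because these are bulk samples, fewer cells of a type and less RNA per cell cannot be told apart.

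The positions of the genes are those of GENCODE release M21 on GRCm38, and 3 of them share exonic bases with a gene on the other strand or a small RNA. *Bmi1* (ENSMUSG00000026739) lies on chromosome 2 at 18677018 to 18686629, *Hopx* (ENSMUSG00000059325) on chromosome 5 at 77086988 to 77115121, *Tert* (ENSMUSG00000021611) on chromosome 13 at 73626911 to 73649843 and *Lrig1* (ENSMUSG00000030029) on chromosome 6 at 94604529 to 94700158. *Mex3a* (ENSMUSG00000074480) lies on chromosome 3 at 88532395 to 88541396, *Clu* (ENSMUSG00000022037) on chromosome 14 at 65968483 to 65981547, *Anxa1* (ENSMUSG00000024659) on chromosome 19 at 20373428 to 20390944 and *Ly6a* (ENSMUSG00000075602) on chromosome 15 at 74994877 to 74998031. Whether the counting used the strand is not stated in the sources used here, so reads in shared bases are uncertain. The antisense gene of *Hopx*, *Hopxos*, shares 412 exonic bases and had 0 to 41 counts against 281 to 1292 for *Hopx*, and *Slc25a26* shares 144 exonic bases with *Lrig1* and had 16 to 157 counts against 1211 to 9259. *Mex3a* overlaps *Mir1905*, which had at most 2 counts. *Ly6a* belongs to a cluster of close paralogues and had only 2 to 67 counts per library, so the share of its reads from a paralogue is uncertain.

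RefSeq promoter sequences of build GRCm38.p6 matched 6 of the 8 genes with 7 promoters, and *Clu* and *Ly6a* were not matched. They were read for the 250 bases before the RefSeq start, here called the window. For *Lrig1*, *Mex3a* and *Anxa1* this start differs from that of the GENCODE positions given above. The *Anxa1* window lies inside the GENCODE positions of the gene, and the *Mex3a* window ends before them. The windows of *Lrig1* and *Mex3a* are shown because these genes fell together from centre to row >3, and that of *Anxa1* because it was the gene that differed between the sites. The *Lrig1* window is chr6:94700146-94700395 on the minus strand, that of *Mex3a* is chr3:88531696-88531945 on the plus strand and that of *Anxa1* is chr19:20390672-20390921 on the minus strand, each written 5′ to 3′ with any TEAD motif in capitals.
Lrig1: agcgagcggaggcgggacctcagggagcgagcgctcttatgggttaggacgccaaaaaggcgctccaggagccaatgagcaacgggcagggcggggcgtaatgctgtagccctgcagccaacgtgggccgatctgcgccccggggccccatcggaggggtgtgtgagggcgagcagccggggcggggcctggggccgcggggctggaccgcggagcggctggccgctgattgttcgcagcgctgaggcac
Mex3a: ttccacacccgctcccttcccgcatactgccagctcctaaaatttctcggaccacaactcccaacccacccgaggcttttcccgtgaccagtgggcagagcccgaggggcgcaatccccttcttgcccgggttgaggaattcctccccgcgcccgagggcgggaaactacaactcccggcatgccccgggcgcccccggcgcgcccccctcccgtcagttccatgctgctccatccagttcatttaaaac
Anxa1: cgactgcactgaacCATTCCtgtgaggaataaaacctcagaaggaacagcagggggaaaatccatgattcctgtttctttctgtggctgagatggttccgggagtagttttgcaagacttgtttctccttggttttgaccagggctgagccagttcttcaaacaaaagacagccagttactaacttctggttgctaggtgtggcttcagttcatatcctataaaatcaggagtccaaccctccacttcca
The letters searched on both strands were GGAATG for TEAD factors, CTTTGA for TCF/LEF factors, through which Wnt signals are read, and the palindrome CAGCTG, an E-box. These occur in 12.6%, 13.8% and 13% of the 32851 RefSeq promoters of the same length. The *Anxa1* window held 1 TEAD match, as CATTCC, and the window of *Bmi1* held 1, as GGAATG. No match of the 3 motifs was found in the windows of *Lrig1*, *Mex3a*, *Tert* or either window of *Hopx*. By base composition the *Lrig1* window (71.6% G or C) and the *Mex3a* window (64%) lay above the median of all promoters (52.4%), and the *Anxa1* window (46%) lay below it.

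On the scale of CPM per kilobase of exon, which allows levels of different genes to be set side by side, the reserve markers spanned a wide range in every group. *Lrig1* was the highest of the 8 in the SI centre with 57.3 ± 9.40 CPM per kb (SD, n = 3), followed by *Hopx* with 27.4 ± 4.89, and the libraries of these 2 genes did not overlap. *Bmi1* (5.81 ± 1.63) and *Mex3a* (4.34 ± 1.93) came next and overlapped each other, and *Tert* stood at 1.31 ± 0.548 CPM per kb. The regenerative markers had the lowest means in the SI centre, with *Anxa1* at 0.446 ± 0.577 (with replicate 3 within the range of *Tert*), *Clu* at 0.398 ± 0.222 and *Ly6a* at 0.386 ± 0.164 CPM per kb, and the libraries of these 3 genes overlapped. In the LI centre *Lrig1* (47.9 ± 10.7) and *Hopx* (30.9 ± 4.56) again led, but *Anxa1* reached 2.90 ± 0.719 CPM per kb, within the range of *Mex3a* (3.42 ± 1.01) and above *Ly6a* (1.23 ± 0.282), *Tert* (0.961 ± 0.214) and *Clu* (0.127 ± 0.0580). In row >3 *Lrig1* and *Hopx* overlapped in the SI (20.3 ± 3.55 and 17.9 ± 5.19 CPM per kb) and in the LI (24.1 ± 2.69 and 25.1 ± 2.12 CPM per kb).

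**Figure D1:**
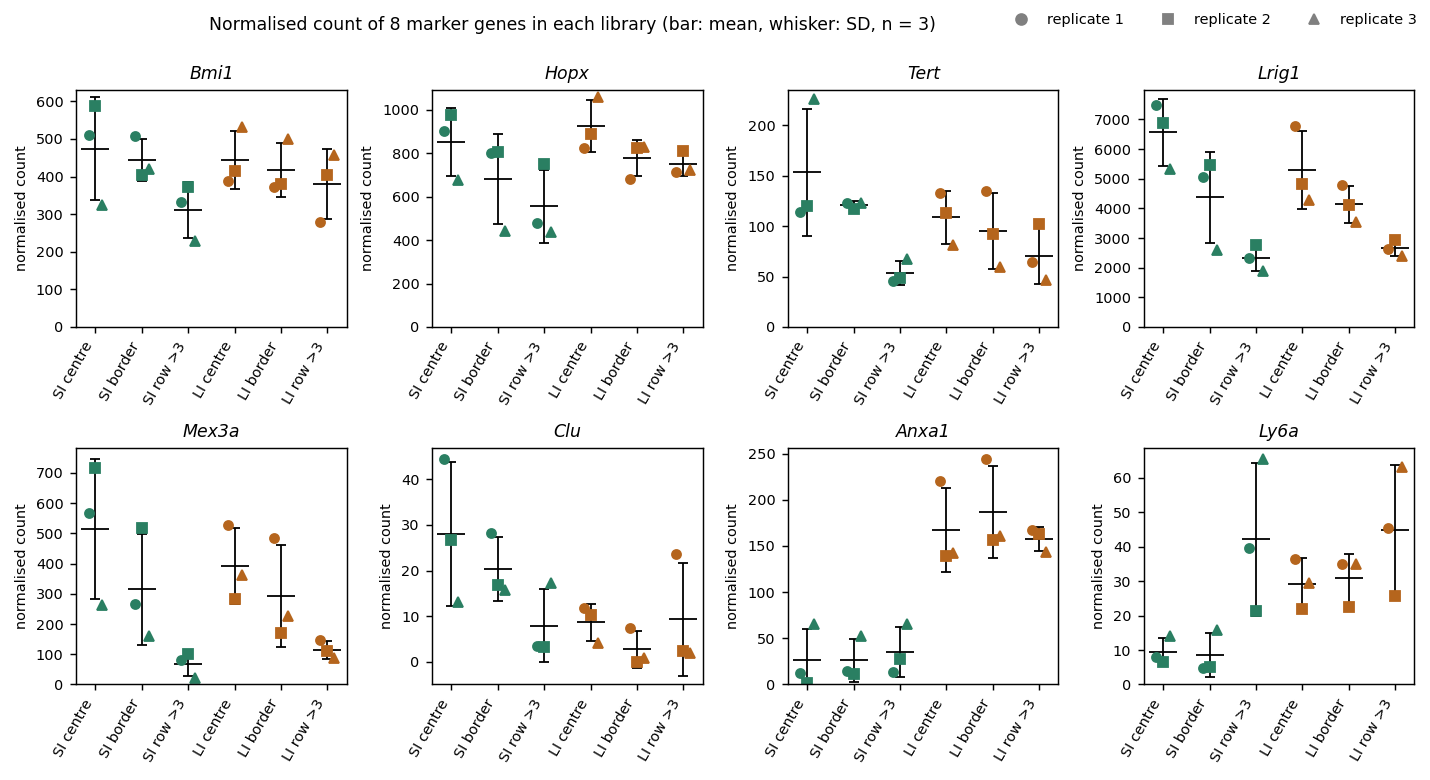
Each panel plots 1 marker, with the group on the x axis and the normalised count of each library on the y axis, a linear axis (marker shape: replicate number, bar: mean, whisker: SD, n = 3). *Lrig1* and *Mex3a* have every row >3 library below every centre library in both sites, *Anxa1* separates the sites, and *Ly6a* is higher in SI row >3 than in SI centre.

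The first comparison asked how the markers change with position within a site, from the centre of the Lgr5+ zone to its border and beyond. From centre to row >3 of the SI, 3 of the 5 reserve markers fell (*Mex3a*, *Tert* and *Lrig1*) and 1 of the 3 regenerative markers rose (*Ly6a*). By the quasi-likelihood test of edgeR, with p-values adjusted over the 26717 genes by the Benjamini-Hochberg method, 4 of the 8 markers were thus called at an adjusted p under 0.05, where 13.2% of all genes tested were called (1964 higher and 1554 lower). In the same 4 markers the libraries of the 2 groups did not overlap, which was the case for 24.9% of all genes. The median log2 fold change of the 5 reserve markers was -1.50 and that of the 3 regenerative markers 0.26, beside a median of 0 over all genes tested. Without the third SI replicate these 2 medians were -1.32 and 1.44. Between border and centre of the SI no marker was called, in a comparison that called 0.0112% of genes (3 genes), and 1 marker (*Lrig1*) had an unadjusted p under 0.05, as had 2399 genes in all. When the third SI replicate was left out, 6 markers were called in row >3 against centre (17.1% of genes) and none in border against centre (0.963%). In border against centre no marker had groups that did not overlap, against 8.75% of genes. In the LI no marker was called between border and centre (0% of genes, 368 genes at an unadjusted p under 0.05), with no marker at an unadjusted p under 0.05 and none without overlap, against 5.6% of genes. In the fit without pairing no marker was called between row >3 and centre of the LI (0.0187% of genes, 5 genes). There 2 markers had an unadjusted p under 0.05, as had 1859 genes. DESeq2 also called no marker between border and centre in either site, where it called 209 genes in the SI and 0 in the LI. Between row >3 and centre it called 4 markers in the SI (4177 genes in all) and 1, *Lrig1*, in the LI (82 genes in all). With a replicate block within each site, edgeR called 2 markers, *Lrig1* and *Mex3a*, in LI row >3 against centre (692 genes in all). The same block added *Bmi1*, *Hopx* and *Clu* in SI row >3 against centre (6103 genes) and *Lrig1* in SI border against centre (620 genes). The libraries of LI row >3 and LI centre did not overlap for *Hopx*, *Lrig1* and *Mex3a*, 3 of the 8 markers, against 14.7% of genes.

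*Lrig1*, a transmembrane protein that restrains signalling by the EGF receptor family, followed the GFP gate most closely. In the SI its normalised counts in replicates 1, 2 and 3 were 7503, 6890.2 and 5318 in the centre, 5065, 5447.5 and 2600.4 in the border, and 2314, 2765 and 1890.4 in row >3. All 3 row >3 libraries lay below all 3 centre libraries, whereas a border library reached the lowest centre library. *Lrig1* was 2.82-fold lower in row >3 than in centre (log2 fold change -1.50, SE 0.22, adjusted p = 0.000141), a call that every alternative retained. Border against centre gave -0.60 (SE 0.22, adjusted p = 0.372), and with a replicate block within each site -0.65 with an adjusted p of 0.0134.

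In the LI the *Lrig1* normalised counts were 6782, 4808 and 4291 in the centre, 4788, 4105 and 3537 in the border, and 2614, 2934 and 2396 in row >3. The row >3 libraries lay below all border and centre libraries, while border and centre overlapped. The difference between row >3 and centre was -0.99 on the log2 scale (SE 0.22, unadjusted p = 0.000182), and its adjusted p of 0.193 did not pass the threshold in the fit without pairing. With the replicate block within each site the same difference was -0.97 and its adjusted p 0.000567. Within replicate numbers *Lrig1* was lower in row >3 than in centre in 3 of 3 pairs at each site.

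*Mex3a*, which encodes an RNA-binding protein of the KH domain family, had the steepest decline of the 8 genes in the SI in the fit of all libraries, while without the third SI replicate that of *Clu* was steeper (-3.40 against -2.82 on the log2 scale). Its normalised counts there were 566, 717 and 262 in the centre, 267, 518 and 160 in the border, and 80.0, 102 and 21.9 in row >3. The highest row >3 library stood below the lowest border library, while the border libraries overlapped the centre. Between row >3 and centre it was 7.16-fold lower (log2 fold change -2.84, SE 0.54, adjusted p = 0.00208), and it was called under every alternative. Border against centre gave -0.72 (SE 0.49, adjusted p = 0.750). The third SI replicate had the lowest normalised *Mex3a* count of each SI group. Without the 3 libraries of that replicate the row >3 difference was -2.82 (adjusted p = 0.000131).

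In the LI the *Mex3a* normalised counts were 528, 284 and 363 in the centre, 485, 169.7 and 226 in the border, and 147, 110.1 and 86.8 in row >3. Here too every row >3 library was below every border and centre library. The difference from centre was -1.76 on the log2 scale (SE 0.51, unadjusted p = 0.00337, adjusted p = 0.443), and with the replicate block within each site it was -1.75 with an adjusted p of 0.000392.

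*Tert* encodes the catalytic subunit of telomerase, which copies the telomere repeat from its RNA template. In the SI its normalised counts were 114, 119.7 and 226 in the centre, 123, 117 and 123 in the border, and 45.1, 48.2 and 67.1 in row >3. The border libraries were close together and within the centre range, and the row >3 libraries lay below both groups. *Tert* was 2.94-fold lower in row >3 than in centre (log2 fold change -1.55, SE 0.38, adjusted p = 0.00866). The call was lost without row >3 replicate 1 (-1.44, adjusted p = 0.0557), while without the third SI replicate it was -1.32 with an adjusted p of 0.0294. In the LI the normalised counts were 133, 113 and 81.0 in the centre, 135, 92.3 and 59.6 in the border, and 64.7, 102 and 46.2 in row >3. These groups overlapped, and the difference between row >3 and centre was -0.59 (SE 0.37, adjusted p = 0.858).

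*Bmi1*, a RING finger subunit of Polycomb repressive complex 1 (PRC1), was not called between any levels in the fit of the 6 groups. Its SI normalised counts were 511, 588 and 324 in the centre, 508, 403 and 421 in the border, and 332, 371 and 228 in row >3. The lowest centre library, that of replicate 3, lay below the first and second row >3 libraries, so the groups overlapped, although row >3 was below centre in 3 of 3 pairs of the same replicate number. The difference was -0.60 on the log2 scale (SE 0.25, adjusted p = 0.132), and it was -0.59 with an adjusted p of 0.0155 with the replicate block within each site. In the LI, with 387, 414 and 531 in the centre and 278, 403 and 458 in row >3, the difference was -0.22 (SE 0.25, adjusted p = 0.969).

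*Hopx* encodes a small homeodomain protein that lacks DNA binding of its own. In the SI its normalised counts were 903.5, 978 and 674 in the centre, 800.4, 804 and 443 in the border, and 481, 748 and 439 in row >3. The row >3 library of replicate 2 lay within the centre range, and in 3 of 3 pairs of the same number both border and row >3 were below centre. The log2 fold change of row >3 over centre was -0.61 (SE 0.23, adjusted p = 0.0842), with an adjusted p of 0.00242 with the replicate block and 0.0465 without the third SI replicate. In the LI the counts of 823, 890.0 and 1057 in the centre stood above 714, 809 and 721 in row >3, a difference of -0.30 (SE 0.22, adjusted p = 0.923) with no overlap of the libraries. *Hopx* was thus called at neither site in the fit of the 6 groups, and in the SI it was called when centre replicate 3 (adjusted p = 0.0477) or row >3 replicate 2 (adjusted p = 0.0182) alone was left out.

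**Figure D2:**
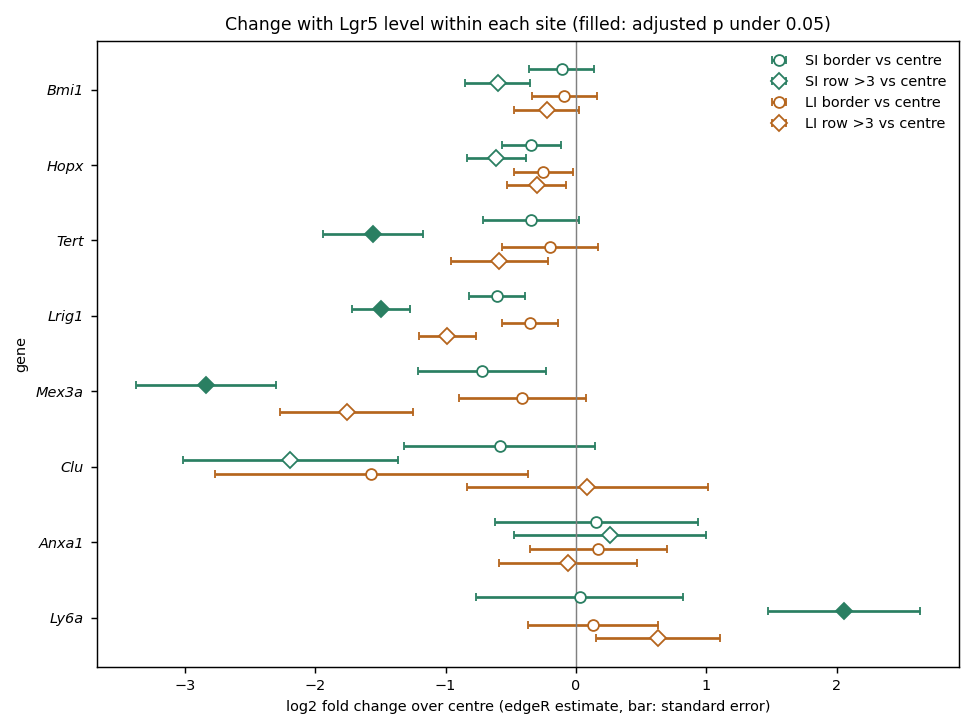
For each marker on the y axis, the x axis gives the edgeR log2 fold change over centre within a site (points: estimate, bars: standard error, filled: adjusted p under 0.05, green: SI, orange: LI, circles: border, diamonds: row >3). The filled points are *Tert* (-1.55), *Lrig1* (-1.50), *Mex3a* (-2.84) and *Ly6a* (2.05) in SI row >3.

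The regenerative markers did not move as a group. *Clu*, a secreted chaperone that marks rare damage-induced stem cells, had 0 to 55 counts per library (median 10.5). In the SI its normalised counts were 44.6, 26.7 and 13.1 in the centre, 28.3, 16.8 and 15.8 in the border, and 3.42, 3.16 and 17.2 in row >3. In replicates 1 and 2 row >3 was the lowest level, and in replicate 3 it was the highest. The log2 fold change of row >3 over centre was -2.19 (SE 0.82, adjusted p = 0.0834), and without the third SI replicate it was -3.40 with an adjusted p of 0.00733. With the replicate block within each site it was -2.29 (adjusted p = 0.0188). In the LI *Clu* had 11.8, 10.2 and 4.09 in the centre, 7.34, 0 and 0.744 in the border, and 23.7, 2.28 and 1.89 in row >3, where replicate 1 alone exceeded the centre. The border library without a *Clu* read holds 15312877 counts, and the limit that a count of 0 allows (3 counts) is 0.189 CPM. Such limits cover counting error only.

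*Ly6a*, a surface protein anchored by glycosylphosphatidylinositol, was the only one of the 8 markers called as higher away from the centre. Its SI normalised counts were 8.10, 6.45 and 13.99 in the centre, 4.72, 5.18 and 15.8 in the border, and 39.7, 21.3 and 65.6 in row >3. Every row >3 library exceeded every centre and border library, and the third replicate was the highest at each level. *Ly6a* was 4.15-fold higher in row >3 than in centre (log2 fold change 2.05, SE 0.59, adjusted p = 0.0205), from 32 counts in the 3 centre libraries and 127 in the 3 row >3 libraries. The call was lost when SI centre replicate 1 (adjusted p = 0.0877), SI centre replicate 2 (0.0903), SI row >3 replicate 1 (0.0680) or SI row >3 replicate 3 (0.0870) was left out, with log2 fold changes of 1.70 to 2.41 over the 6 omissions. It was also lost with the groups fitted alone (0.0574) and with the legacy quasi-likelihood fit (0.0520). It held at 2.07 without all 3 libraries of the third SI replicate (adjusted p = 0.0410). In the LI *Ly6a* had 36.5, 21.9 and 29.4 in the centre, 34.9, 22.5 and 35.0 in the border, and 45.5, 25.8 and 63.2 in row >3, with overlap, and the difference between row >3 and centre was 0.63 (SE 0.48, adjusted p = 0.925).

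Goblet cell genes moved with the row >3 libraries of the SI beside these changes. Summed over the 6 genes *Muc2*, *Clca1*, *Fcgbp*, *Spdef*, *Agr2* and *Tff3*, they held 665, 1145 and 9967 CPM in SI centre, where the third replicate was the highest, and 30461 to 49421 CPM in SI row >3, and 6723 to 10667 CPM in LI centre against 14838 to 23205 CPM in LI row >3. In the SI 5 of the 6 were called higher and 1, *Clca1*, lower in row >3, in the contrast that called 13.2% of all genes. In the LI the fit without pairing called none of the 6, and 0.0187% of all genes. The LI sums in centre and row >3 were 7467 and 23205 CPM in replicate 1, 6723 and 14838 in replicate 2, and 10667 and 21719 in replicate 3. Summed levels of 6 absorptive cell markers were 148 to 269 CPM in SI centre and 624 to 1410 CPM in SI row >3, with 3 of 6 called higher. Of 7 proliferation genes 4 were lower in SI row >3, with sums of 2036 to 2932 CPM in the centre and 782 to 2085 CPM in row >3. In the same contrast 2 of 6 tuft cell genes and 1 of 8 enteroendocrine cell genes were called higher and none lower, and none of the absorptive, proliferation, tuft or enteroendocrine genes was called in the LI. The tuft cell genes summed to 24.5, 28.3 and 338 CPM in SI centre, the third replicate again being the highest. Without that replicate 5 of the 6 tuft cell genes, 3 of the 8 enteroendocrine genes, 5 goblet cell genes and 3 absorptive genes were called higher in SI row >3 than in centre, and 1 goblet cell gene and 5 proliferation genes lower, beside 17.1% of all genes. The part of these cells in the fall of *Lrig1*, *Mex3a* and *Tert* and in the rise of *Ly6a* was not tested.

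The second comparison set the SI against the LI at each level of Lgr5-GFP. Of the 8 markers 1, *Anxa1*, was called at each level, and it was lower in the SI. *Anxa1* encodes annexin A1, a protein that binds phospholipid in the presence of calcium and limits inflammation. In the SI its normalised counts were 12.2, 1.84 and 65.3 in the centre, 14.2, 11.7 and 52.6 in the border, and 12.99, 27.6 and 65.6 in row >3. In the LI they were 219.9, 139 and 142 in the centre, 244, 156 and 161 in the border, and 168, 162.5 and 143 in row >3. All 9 LI libraries exceeded all 9 SI libraries. The SI level was 6.57-fold lower in the centre (log2 fold change -2.72, SE 0.63, adjusted p = 0.0281), 6.64-fold lower in the border (-2.73, SE 0.66, adjusted p = 0.0391) and 5.25-fold lower in row >3 (-2.39, SE 0.63, adjusted p = 0.0350).

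The third SI replicate, which held identity genes of both sites, also had the highest *Anxa1* count of each SI group. Without its 3 libraries, where 10.9%, 8.1% and 12.2% of all genes were called, the differences were -4.49 in the centre (adjusted p = 1.28e-06), -3.92 in the border (3.26e-05) and -2.99 in row >3 (1.23e-05). Leaving out any other single library of the groups compared ended the call at each level, with adjusted p values of 0.0651 to 0.158 in the centre, 0.0861 to 0.153 in the border and 0.0807 to 0.226 in row >3 and with *Anxa1* lower in the SI in each. The legacy form of the quasi-likelihood fit also ended it, with adjusted p values of 0.170, 0.155 and 0.232, as did fitting the centre groups alone (0.0703) and dropping the filter in the border (0.0543). Within a site *Anxa1* was not called between levels, with log2 fold changes over centre between -0.06 and 0.26 and adjusted p values of 0.943 to 1. Without the third SI replicate *Anxa1* in SI row >3 over centre was at 1.44, also not called. Across the sites 9 of 9 immediate-early genes, which respond to stress and cell isolation, were called lower in the SI at every level, with sums of 651 to 1401 CPM in the SI libraries and 2414 to 4550 CPM in the LI libraries (without the third SI replicate 9, 9 and 8 of the 9 in centre, border and row >3), and their part in the *Anxa1* difference was not tested.

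The share of genes called between SI and LI was 1.99% in the centre, 1.75% in the border and 4.09% in row >3, beside 1 of 8 markers at each level. In the centre and in the border 3 of the 8 markers had sites that did not overlap, *Clu*, *Anxa1* and *Ly6a*, against 18.2% and 15% of all genes. In row >3 this was so for *Anxa1* alone, against 17.6% of genes. *Clu* stood at 28.1 ± 15.8 normalised counts in the SI centre and 8.69 ± 4.06 in the LI centre (SD, n = 3, log2 fold change 1.68, SE 0.76, adjusted p = 0.297) and at 20.3 ± 6.96 and 2.69 ± 4.04 in the border (2.66, SE 1.11, adjusted p = 0.258), neither of which passed the test. When 1 library was left out, these *Clu* differences ranged from 1.17 to 2.03 in the centre and from 2.12 to 4.97 in the border. *Ly6a* was at 9.51 ± 3.96 in the SI centre and 29.3 ± 7.30 in the LI centre (-1.64, SE 0.60, adjusted p = 0.179), and at 42.2 ± 22.2 and 44.8 ± 18.7 in row >3 (-0.22, SE 0.46, adjusted p = 0.915). None of the 5 reserve markers was called between the sites at any level, and their log2 fold changes ran from -0.73 (*Mex3a*, row >3) to 0.45 (*Tert*, centre). The median of these 5 was 0.26 in the centre, 0.01 in the border and -0.49 in row >3, beside 0 over all genes. Without the third SI replicate it was 0.28, 0.30 and -0.30.

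**Figure D3:**
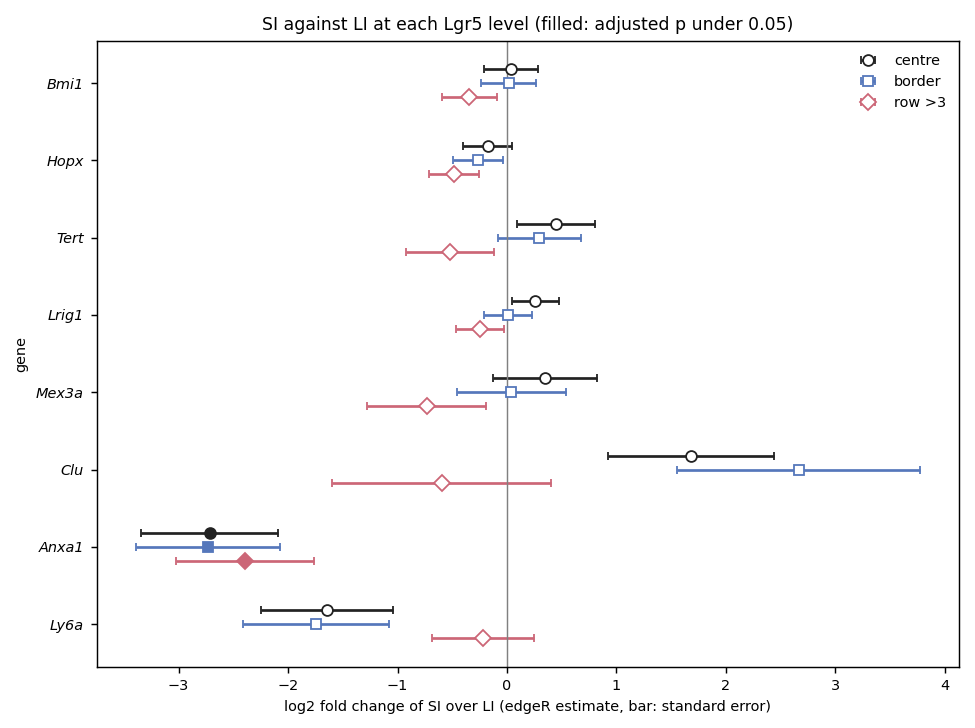
For each marker on the y axis, the x axis gives the edgeR log2 fold change of SI over LI at 1 level of Lgr5-GFP (points: estimate, bars: standard error, filled: adjusted p under 0.05). *Anxa1* alone is filled, at -2.72, -2.73 and -2.39, and the 5 reserve markers lie between -0.73 and 0.45.

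Whether the change with level differed between the sites was tested with the interaction of site and level. No marker was called for border against centre or for row >3 against centre, and edgeR called 0% of genes in either test, with 708 and 1800 genes at an unadjusted p under 0.05 but none of the 8 markers. DESeq2 called no marker in either and 2 and 151 genes. With the replicate block within each site edgeR called 0 and 620 genes, and without the third SI replicate 42 and 857, again with no marker among them. In the fit of the 6 groups the largest differences of the row >3 effect (SI minus LI) were -2.28 for *Clu* (SE 1.27, unadjusted p = 0.0839), 1.43 for *Ly6a* (SE 0.77, unadjusted p = 0.0766), -1.08 for *Mex3a* (SE 0.72, unadjusted p = 0.155) and -0.97 for *Tert* (SE 0.54, unadjusted p = 0.0846), with adjusted p values of 0.808 to 0.936. When 1 library was left out they ranged from -3.16 to -0.25, 1.06 to 1.77, -1.42 to -0.75 and -1.19 to -0.59. The lowest value for *Clu* under any alternative was -3.47, and *Clu* was not the largest under every omission. The calls in SI row >3 without a call in LI row >3 are therefore not shown to differ between the sites.

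Ordered by mean normalised count, the 6 groups of *Lrig1* and *Mex3a* fell into the same order, SI centre, LI centre, SI border, LI border, LI row >3 and SI row >3. For both genes neighbouring groups overlapped except LI border and LI row >3. *Bmi1* and *Tert* also ran from SI centre down to SI row >3, and for *Hopx* LI centre was the highest group and SI row >3 the lowest, but for these 3 genes every group overlapped its neighbour. *Clu* ran from SI centre (28.1 ± 15.8 normalised counts) down to LI border (2.69 ± 4.04), and its neighbouring groups overlapped too. *Anxa1* had its only gap between LI row >3 (158 ± 12.8 normalised counts) and SI row >3 (35.4 ± 27.1). *Ly6a* had its only gap between LI centre (29.3 ± 7.30) and SI centre (9.51 ± 3.96).

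Across the 18 libraries the log2 CPM of *Lrig1* had a Pearson correlation of 0.96 with that of *Lgr5*, and that of *Mex3a* 0.91. Within the 9 SI libraries these values were 0.98 and 0.95, and within the 9 LI libraries 0.91 and 0.80. *Hopx* (0.77), *Bmi1* (0.66) and *Tert* (0.61) were lower over the 18 libraries, and *Ly6a* was negative at -0.59 (-0.87 within the SI, -0.63 within the LI). The values of *Clu* (0.53 in the SI and -0.15 in the LI) and *Anxa1* (-0.59 and 0.22) had opposite signs in the 2 sites, so no pooled value is read for them. These are descriptions without a test, since the libraries share their groups, the gate was set on *Lgr5*-driven GFP and libraries of the same number within a site deviate together. *Lrig1* and *Mex3a* also correlated with each other at 0.92 (0.94 within the SI, 0.90 within the LI). *Bmi1* and *Tert* correlated at 0.34 within the SI and -0.22 within the LI, so no pooled value is read for them either.

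**Figure D4:**
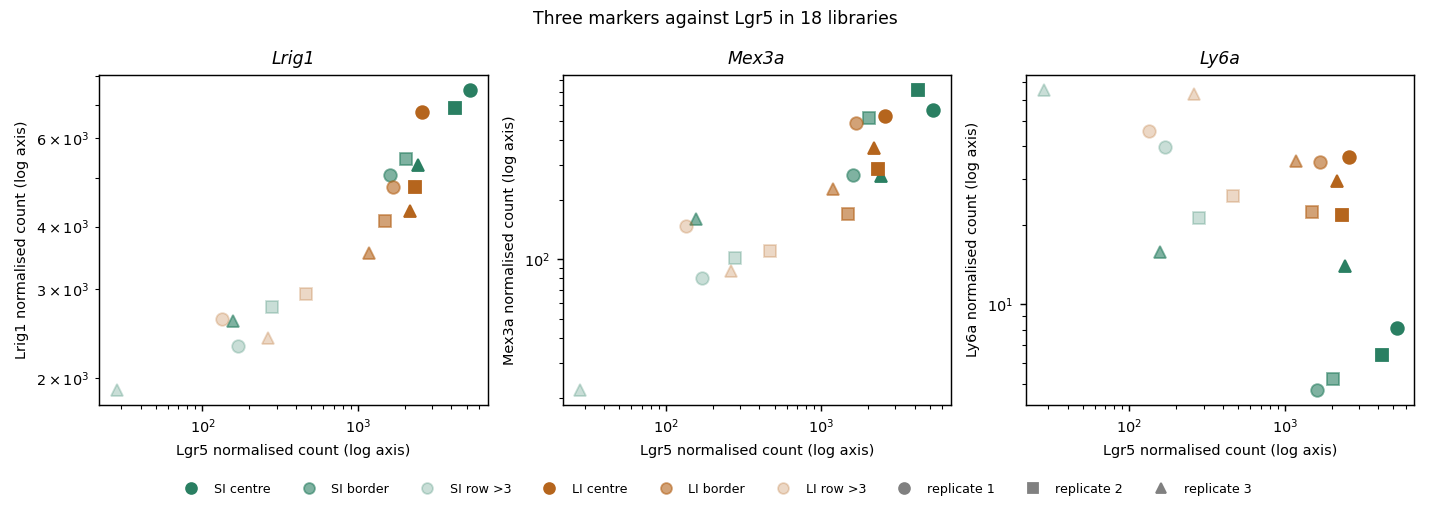
The normalised count of *Lrig1*, *Mex3a* and *Ly6a* (y axis, log scale) is plotted against that of *Lgr5* (x axis, log scale) in the 18 libraries (colour: site, shade: level, shape: replicate). *Lrig1* and *Mex3a* are higher where *Lgr5* is higher, with the reverse for *Ly6a*, and the third SI replicate has the lowest *Lgr5* count (28.1).

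The genes whose log2 CPM followed each marker most closely were read among the 12976 or 12977 other genes with a mean of at least 1 CPM, as a description over the 18 libraries. *Lrig1* was nearest to *Plxnb1* (r = 0.98), *Kcnq1* (0.98) and *Rif1* (0.97), and *Mex3a* to *Ezh2* (0.97), *Fmnl2* (0.97) and *Cbx6* (0.96). *Hopx* was nearest to *Hdac2* (0.95), *Hist1h3f* (0.94) and *Fundc2* (0.93), *Bmi1* to *C330007P06Rik* (0.90), *Twistnb* (0.88) and *Khdrbs1* (0.88), and *Tert* to *Pnpla7* (0.92), *Psd3* (0.89) and *Cntrl* (0.89). Among the regenerative markers, *Anxa1* was nearest to *Hoxb2* (0.97), *C77370* (0.96) and *Ptpn13* (0.95), *Ly6a* to *Shisa5* (0.96), *Ubap1* (0.95) and *Paqr4* (0.95), and *Clu* to *Gm9974* (0.92), *Glcci1* (0.84) and *Pank4* (0.82). *Ezh2* encodes the methyltransferase of Polycomb repressive complex 2, *Hdac2* a histone deacetylase and *Hoxb2* a homeobox factor of anterior-posterior position.

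Partners and relatives of the markers were read from lists for the same contrast, row >3 against centre of the SI. Of 15 other PRC1 subunits, partners of *Bmi1*, 1 was called higher (*Pcgf3*, 0.73 on the log2 scale, adjusted p = 0.00263) and 2 lower (*Cbx6*, -2.27, adjusted p = 8.16e-05, and *Pcgf6*, -1.01, adjusted p = 0.0106), with a list median of -0.10, in a contrast that called 13.2% of all genes tested. Of 7 telomerase components other than *Tert*, 3 were lower, namely the RNA-protein complex subunits *Nhp2* (-0.81, adjusted p = 0.0361) and *Gar1* (-0.80, adjusted p = 0.0312) and the assembly factor *Naf1* (-0.96, adjusted p = 0.0250), beside the same 13.2%. The median of the 7 was -0.80, and the RNA template *Terc* was at -0.10 (adjusted p = 1). Of the 5 relatives of *Lrig1* and *Mex3a*, *Mex3d* was lower (-1.21, adjusted p = 0.0137), and *Lrig2* (0.46, adjusted p = 0.340) and *Lrig3* (0.34, adjusted p = 0.669) were not called. Without the third SI replicate 1 PRC1 subunit was called higher and 4 lower, 4 telomerase components were lower, and 1 of the 5 relatives was lower, beside 17.1% of all genes. In the LI none of these genes was called in the same contrast, which called 0.0187% of all genes.

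In SI row >3 over centre *Anxa1* was at 0.26 on the log2 scale (SE 0.73), with values of -0.37 to 2.07 when 1 library was left out. Without the third SI replicate it was at 1.44. *Anxa1* was not tested against its relatives. In the same contrast 6 of the 11 other annexins were called higher and none lower, with a list median of 2.55 beside 0 over all genes and 13.2% of all genes called in either direction. The 4 with the smallest adjusted p were *Anxa5* (2.55, SE 0.31, adjusted p = 3.41e-05), *Anxa3* (3.73, SE 0.53, adjusted p = 9.43e-05), *Anxa13* (2.85, SE 0.45, adjusted p = 0.000779) and *Anxa2* (2.64, SE 0.47, adjusted p = 0.00203). *Anxa2* rose from 810 ± 534 normalised counts in SI centre to 5046 ± 789 in SI row >3 (SD, n = 3). Between the sites *Anxa5* was lower in the SI centre, as *Anxa1* was (-2.05, adjusted p = 0.000850), and it was the only other annexin called there. None was called in the border, and in row >3 the annexins called, *Anxa4* (0.80, adjusted p = 0.0124) and *Anxa13* (2.08, adjusted p = 0.0131), were higher in the SI, opposite to *Anxa1*. The shares of all genes called were 1.99%, 1.75% and 4.09% in centre, border and row >3. With SI replicate 3 left out, 4 annexins were called lower in the SI centre, 2 higher in the border and 4 higher in row >3, beside 10.9%, 8.1% and 12.2% of all genes, and 8 of the 11 were higher in SI row >3 than in centre, with a list median of 1.56, beside 17.1% of all genes. In the LI no annexin was called between row >3 and centre (0.0187% of all genes), and their median was 0.92. Of the 8 other genes of the *Ly6* family 5 had counts and none was called in any comparison, and the most abundant, *Ly6e*, was at 0.84 in SI row >3 over centre (SE 0.46, adjusted p = 0.314).

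**Figure D5:**
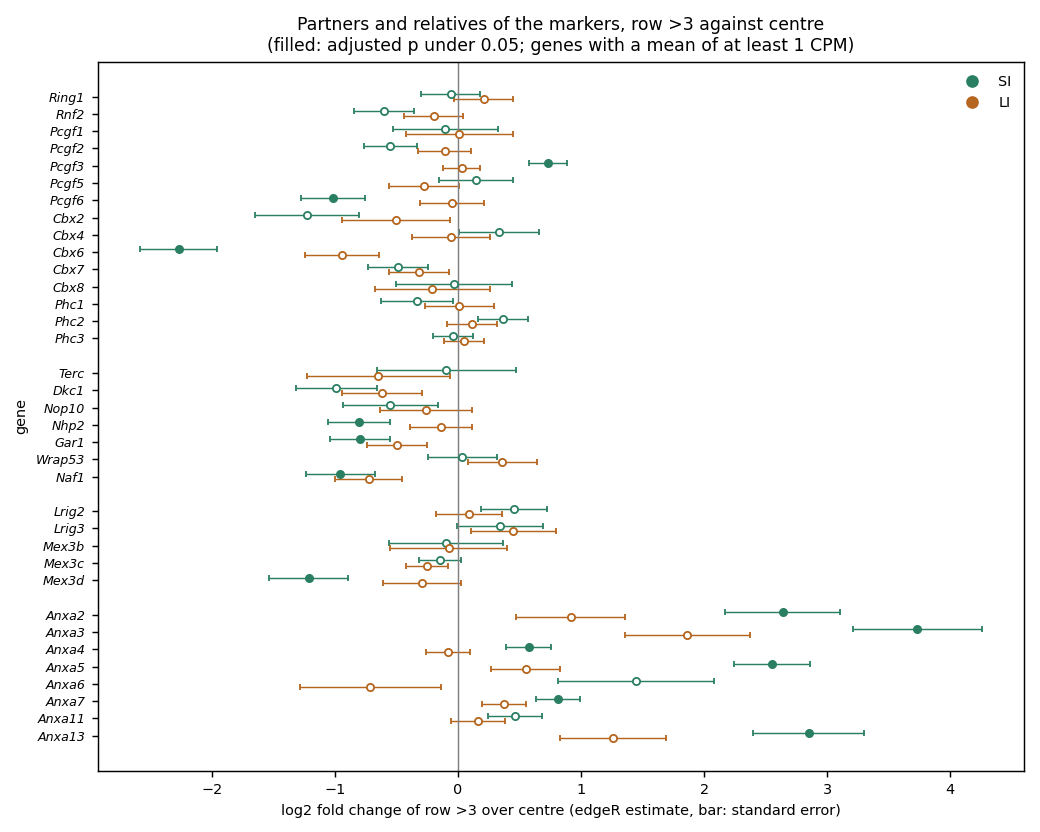
For partners and relatives of *Bmi1*, *Tert*, *Lrig1*, *Mex3a* and *Anxa1* with a mean of at least 1 CPM (y axis, grouped by list), the x axis gives the edgeR log2 fold change of row >3 over centre in the SI (green) and the LI (orange), with bars for the standard error and filled points for an adjusted p under 0.05. All filled points are in the SI, with *Cbx6* lowest at -2.27 and *Anxa3* highest at 3.73, where the LI contrast called 0.0187% of all genes. For the interaction of site and level no gene of these lists was called in the fit of all libraries (0% of all genes). Without the third SI replicate 4 annexins were called for it, beside 3.27% of all genes.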

How the data were processed

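RNA was measured in the 18 libraries of the 6 groups, as described in the report. The authors prepared the libraries with a stranded kit, demultiplexed the reads with bcl2fastq, used STAR for alignment to mm10 and for gene counts, and deposited the raw counts. Their second deposited table holds the normalised counts, a signal in which each library's counts are divided by its DESeq2 size factor. Neither the annotation release nor the strand setting of the counting is given in the sources used here.

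Raw counts were tested with edgeR 4.0.16 in R 4.3.3 (TMM factors, a mean count above 0, robust glmQLFit, 12 residual degrees of freedom), in 1 fit of the 6 groups, with a threshold of 0.05 on p-values adjusted over all genes tested (Benjamini-Hochberg). DESeq2, the tool of the study's methods, was run here in version 1.42.0 as an alternative. The procedure was also tested on simulated data, whose outcome is not reported here and on which no result rests. The other alternatives were other scaling, filters and dispersion fits, the groups compared alone, a replicate block, and leaving out each library or the third SI replicate (for the gene lists chosen after seeing the data). Replicates are biological replicates by the study's methods, and the labels do not name the mouse.

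Replicate numbers come from the labels. Deviations from the group means correlated in all 18 same-numbered pairs of libraries within a site (r of 0.36 to 0.78 over 10223 genes), so the numbers were taken as pairs within a site, but not across sites (-0.10 to 0.44). The blocked value is given beside a result where it changes the call.

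CPM are counts scaled to the library total multiplied by its TMM factor, divided by exon length in GENCODE M21 where genes are compared. Log2 CPM for correlations used a prior count of 2. The text names all 8 markers, at most 4 called genes per list and comparison, the most abundant relative, and the 3 genes most like each marker by Pearson correlation. It also names some list genes that were not called. The members and lists were chosen with earlier results of these data known, and some genes of the lists are not reported here by name. The log2 ratios of same-numbered libraries used a pseudocount of 1. Figures were drawn with matplotlib 3.10.9.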

Additional observations from a re-analysis of the deposited data

How the results depend on the processing

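Of 1208 values of the 72 marker differences under the alternatives, 1081 kept their direction and their side of the threshold, 27 lost a call, 19 gained one and 81 changed sign. No called difference changed sign, and the largest difference that did was 0.60 on the log2 scale in the fit of the 6 groups. The depth limits *Clu*, *Ly6a* and, in the SI, *Anxa1*, which rest on few counts per library. The cause of each change was not tested.

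With the replicate block within each site, the number of markers called was 1 in SI border against centre, 7 in SI row >3 against centre (*Bmi1*, *Hopx* and *Clu* in addition) and 2 in LI row >3 against centre (*Lrig1* and *Mex3a*), and the genes called in all were 620, 6103 and 692. With the block over all libraries 1 marker was called in LI row >3 against centre (36 genes in all), with the groups compared alone 2 (243 genes), and by DESeq2 1 (82 genes). The groups compared alone called 0 markers between the sites in the centre (625 genes in all), and the fit without a filter 0 in the border (321 genes). The legacy quasi-likelihood fit called 0 at each level, beside 379, 414 and 891 genes in centre, border and row >3. DESeq2 called 209 genes in SI border against centre, 82 in LI row >3 against centre, and 1229, 1212 and 1682 between the sites in centre, border and row >3, against 3, 5, 532, 468 and 1092 by edgeR. When 1 library was left out, the markers called ranged from 2 (without SI row >3 replicate 1) to 7 (without SI centre replicate 3) in SI row >3 against centre, and from 0 to 1 between the sites at each level. The fit of all libraries called 4 and 1, beside 13.2% of all genes in the former and 1.99%, 1.75% and 4.09% in the latter. The genes called in all under each omission are not given here.

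The following log2 fold changes changed sign. *Ly6a* in SI border against centre was 0.03 in the fit of the 6 groups, -0.056 by DESeq2, -0.051 by library size alone, -0.048 with the replicate block within each site, -0.087 by the legacy fit and -0.56 without the third SI replicate. *Clu* in LI row >3 against centre was 0.09, and -0.025 by library size alone, -0.11 with the block within each site and -0.051 with the block over all libraries. With the block within each site *Anxa1* in SI border against centre was -0.0067 and the border interaction of *Bmi1* 0.013. With the block over all libraries *Lrig1* between the sites in the border was -0.029 and the border interaction of *Anxa1* 0.026. Without the third SI replicate *Hopx* between the sites was 0.0022 in the centre and 0.0023 in the border, and the border interactions of *Hopx*, *Tert* and *Anxa1* were 0.00014, 0.20 and 0.56.

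Leaving out each library in turn, differences of SI border against centre ranged from -0.33 to 0.070 for *Bmi1*, -0.53 to 0.029 for *Tert*, -1.07 to 1.96 for *Anxa1* and -0.92 to 0.38 for *Ly6a*. In LI border against centre they ranged from -0.27 to 0.070 for *Bmi1*, -0.52 to 0.058 for *Tert*, -0.045 to 0.39 for *Anxa1* and -0.044 to 0.28 for *Ly6a*. In row >3 against centre *Anxa1* ranged from -0.37 to 2.07 in the SI and from -0.16 to 0.15 in the LI, and *Clu* in the LI from -1.94 to 0.59. Between the sites the ranges were -0.15 to 0.26 for *Bmi1* in the centre, -0.080 to 0.19 for *Bmi1*, -0.19 to 0.26 for *Lrig1* and -0.56 to 0.58 for *Mex3a* in the border, and -1.45 to 1.43 for *Clu* and -0.56 to 0.13 for *Ly6a* in row >3. The border interaction ranged from -0.25 to 0.16 for *Bmi1*, -0.24 to 0.13 for *Hopx*, -0.41 to 0.22 for *Tert*, -0.45 to 0.0025 for *Lrig1*, -0.91 to 0.23 for *Mex3a*, -1.24 to 1.78 for *Anxa1* and -1.06 to 0.24 for *Ly6a*, and the row >3 interaction from -0.32 to 2.12 for *Anxa1*.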

Other observations

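Genes of the fetal-like and regenerating epithelium beyond the 3 markers were read from a list of 13, of which 12 had counts. In SI row >3 against centre edgeR called 2 of the 12 higher and none lower, beside 13.2% of all genes called, among them the keratin gene *Krt7* (0.84 on the log2 scale, SE 0.17, adjusted p = 0.00155), and no gene of the list was called in the LI, where 0.0187% of all genes were. Between the sites none of the 12 was called. Without the third SI replicate, an alternative chosen after seeing the data, 3 were called higher and 1 lower in SI row >3 over centre (17.1% of all genes), and between the sites 3 were lower in the SI centre, 2 lower in the border, and 1 higher and 2 lower in row >3 (10.9%, 8.1% and 12.2%). In the fit of all libraries *Areg*, a ligand of the EGF receptor, was at -2.71 in SI against LI centre and was not called (SE 0.68, adjusted p = 0.0596). The list's median between the sites was -0.80 in the centre and 0 in the border and in row >3, beside 0 over all genes.

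Among the YAP and TEAD genes, 2 of 6 were lower in SI row >3 than in centre, *Yap1* (-0.57, adjusted p = 0.0146) and *Tead2* (-1.76, adjusted p = 0.0101), and 1 was higher, *Tead4* (1.70, adjusted p = 0.00550), beside 13.2% of all genes called. Between the sites 1 of the 6 was called, *Wwtr1*, lower in SI than in LI row >3 (-3.42, adjusted p = 0.0289). Without the third SI replicate the counts in SI row >3 over centre were the same (2 lower and 1 higher), beside 17.1% of all genes. In that fit 2, 1 and 1 of the 6 were lower in the SI in centre, border and row >3, beside 10.9%, 8.1% and 12.2% of all genes. Of 22 YAP target genes 21 were tested, with 2 called higher (*Myof*, 3.39, adjusted p = 0.000141, and *Dock5*, 0.86, adjusted p = 0.000982) and 3 lower, among them *Rbms3* (-2.91, adjusted p = 0.000884) and *Ptpn14* (-1.63, adjusted p = 0.00896), and the list's median was 0, beside the same 13.2%. *Cyr61*, a YAP target that is also an immediate-early gene, was lower in the SI at each level (-1.83, -2.03 and -1.71 in centre, border and row >3, adjusted p = 0.0121, 0.00850 and 0.0104), while other YAP targets were higher in the SI, namely *Amotl2* in the centre (1.24, adjusted p = 0.0179) and the border (1.36, adjusted p = 0.0129) and *Dock5* (0.64, adjusted p = 0.0230) and *Nuak2* (0.74, adjusted p = 0.0328) in row >3. The share of all genes called between the sites was 1.99%, 1.75% and 4.09% in centre, border and row >3. Without the third SI replicate 4 of 20 YAP targets were higher and 3 lower in SI row >3 over centre, beside 17.1% of all genes. Between the sites 1, 2 and 3 were then higher and 2, 2 and 2 lower in centre, border and row >3, beside 10.9%, 8.1% and 12.2% of all genes.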
